A study of Mus musculus with 2 samples.

Results

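Mir31, Mir489, Mir221 and Mir222 are 4 of the 2202 microRNA (miRNA) genes counted in gastrocnemius, the large calf muscle. They were chosen by symbol in the GENCODE M21 annotation because they are known from work on satellite cells, the stem cells of skeletal muscle, and on the myoblasts that descend from them. The muscle was that of female adults, 18 to 20 months old, of B6CASTF1/J, an F1 hybrid mouse strain, and the labels name no treatment and no engineered allele. Short RNA of under 30 bases, by the labels' size range, was sequenced as 2 libraries of 1 group, numbered biological replicates 1 and 2. Both carry the same donor entry but separate tissue sample entries, so the spread between them may be technical. The design holds no contrast between conditions, and the data answer how much of each gene this muscle held and how far both libraries agree on it.

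A miRNA is cut from a hairpin precursor and directs the silencing of messenger RNAs that pair with its seed, bases 2 to 8 of the mature strand. Satellite cells lie quiescent beside the muscle fibre, and after injury they divide as myoblasts and fuse into fibres. In mouse satellite cells, Mir31 is known to hold the messenger RNA of the myogenic factor Myf5 untranslated during quiescence, and Mir489 is known to keep the cells quiescent by repressing Dek. Mir221 and Mir222 are known to target the cell cycle inhibitor Cdkn1b in proliferating myoblasts and to decline as these differentiate, and both are also known from endothelium and vascular smooth muscle.

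The mature strands usually described as the active arms are printed from RefSeq (build GRCm38.p6, the assembly that mm10 names), to show which of the genes share a seed. Lower case letters run from 5′ to 3′ and capitals mark the seed. All 4 genes matched the RefSeq table by symbol. Mir425 and Mir1928 are added because a mature strand of each has the seed of Mir489 or of Mir221.
miR-31-5p: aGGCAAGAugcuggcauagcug
miR-489-3p: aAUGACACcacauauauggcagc
miR-425-5p: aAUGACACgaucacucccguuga
miR-221-3p: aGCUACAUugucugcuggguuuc
miR-222-3p: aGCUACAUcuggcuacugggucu
miR-1928: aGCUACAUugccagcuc

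Mir221 and Mir222 form one seed group. Their strands are identical from position 1 to position 8 and, laid side by side without gaps, at 11 of 23 positions. The strands of Mir31 and Mir489 share a seed with no other member. None of the printed member strands lies in the hairpin of another annotated miRNA gene, and the longest run that a member hairpin shares with any other hairpin is 12 bases for Mir31 and Mir222, 13 for Mir221 and 14 for Mir489. The rest of the genome was not searched. The files count reads per hairpin gene, so both arms of a hairpin enter one count.

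By mm10 coordinates, Mir31 (ENSMUSG00000065408.1) spans 88910557 to 88910662 on the minus strand of chromosome 4, inside an exon of an unnamed long noncoding RNA gene of the same strand. The nearest protein-coding gene is the interferon gene Ifne, 30355 bases away. Mir489 (ENSMUSG00000070107.1) spans 3721897 to 3722003 on the minus strand of chromosome 6, in an intron of Calcr, the calcitonin receptor gene, which is a known marker of quiescent mouse satellite cells. Mir221 (ENSMUSG00000065422.1, 19146294 to 19146388) and Mir222 (ENSMUSG00000065471.1, 19146893 to 19146971) lie 504 bases apart on the minus strand of chromosome X, outside any other annotated gene.

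Replicate 1 had 6888732 reads in all and 865419 sense counts on miRNA genes. Replicate 2 had 12001270 and 2177048. Multimapping reads made up 80.7% and 71.0% of all reads and enter no gene count. Of the 2202 genes, 422 had counts in both libraries and 1596 in neither. The muscle identity of the tissue was checked on Mir1a-1, Mir1a-2, Mir133a-1, Mir133a-2, Mir133b and Mir206: all 6 had counts in both libraries, and together they held 40743 CPM in replicate 1 and 103501 CPM in replicate 2. Mir206 alone held 40389 and 103232 CPM of these sums, so the check rests mostly on that gene. Mir133a-2 had only 2 and 11 counts. CPM is the count divided by the gene counts of the library and multiplied by 1000000.

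Mir221 held most counts of the 4 genes, Mir222 and Mir31 were lower, and Mir489 was not detected. Mir221 alone made up 87.6% of the counts of the 4 genes in replicate 1 and 82.0% in replicate 2. With Mir222 it made up 97.1% of the counts of the 4 genes in replicate 1 and 98.6% in replicate 2. All 4 genes together took 0.0753% and 0.104% of gene counts. No antisense read was counted at any of the 4 genes.

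Mir221 had 571 counts in replicate 1 and 1855 in replicate 2. These were 660 CPM (exact Clopper-Pearson interval 607 to 716) and 852 CPM (814 to 892), a mean of 756 ± 136 CPM (SD, n = 2). Replicate 2 was higher, and the counting intervals did not overlap. The gene ranked 64 and 65 among all miRNA genes in the respective libraries, close to the same place in both.

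Mir222 had 62 and 377 counts. Its levels were 71.6 CPM (54.9 to 91.8) in replicate 1 and 173 CPM (156 to 192) in replicate 2, a mean of 122 ± 71.8 CPM (SD, n = 2). Replicate 2 was the higher library, and the counting intervals did not overlap. The gene ranked 149 in replicate 1 and 126 in replicate 2.

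Mir31 had 19 and 31 counts. Its levels were 22.0 CPM (13.2 to 34.3) in replicate 1 and 14.2 CPM (9.68 to 20.2) in replicate 2, a mean of 18.1 ± 5.46 CPM (SD, n = 2). Here replicate 1 was the higher library, but the intervals overlapped. Mir31 ranked 206 and 266.

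Mir489 had 0 counts in both libraries. For a count of 0 a floor of 3 counts was used, which is 3.47 CPM in replicate 1 and 1.38 CPM in replicate 2. Its neighbour in the same Calcr intron, Mir653, 511 bases away on the same strand, had 0 counts in replicate 1 and 1 in replicate 2. Intervals and floors cover counting error only, since these reads carry no molecular identifiers. At this depth the level of Mir489 can be stated as below the upper limits of its exact intervals, not as absent. These limits were 4.26 CPM in replicate 1 and 1.69 CPM in replicate 2. In a whole muscle, fewer satellite cells and less of the miRNA in each cell cannot be told apart.

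**Figure D1:**
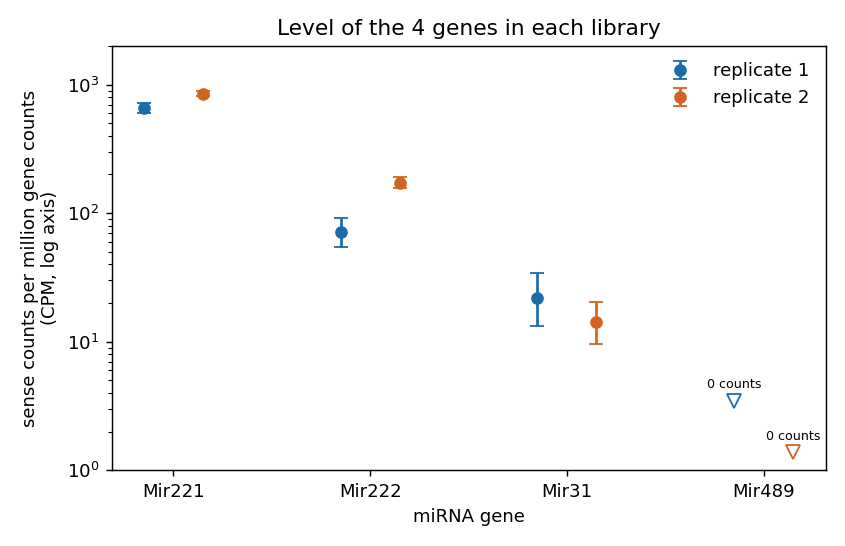
Level of each gene as sense CPM (log axis) in replicate 1 (blue) and replicate 2 (orange), with exact 95% Clopper-Pearson intervals for counting error; open triangles mark the floor of 3 counts where the count was 0. Mir221 lies highest at 660 and 852 CPM, Mir222 and Mir31 follow, and Mir489 has no counts in either library.

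The order of the levels was Mir221, Mir222, Mir31, Mir489 in both libraries, and no neighbours in that order overlapped. The lowest Mir221 library, at 660 CPM, lay above the highest Mir222 library, at 173 CPM. The lowest Mir222 library, at 71.6 CPM, lay above the highest Mir31 library, at 22.0 CPM. The counts of Mir31 were 6.33 times the floor of 3 counts used for Mir489 in replicate 1 and 10.3 times in replicate 2. These folds leave out the counting error of Mir31. The lower interval bounds of Mir31, 13.2 and 9.68 CPM, lay above the upper bounds of Mir489, 4.26 and 1.69 CPM. The order was the same when counts were divided by hairpin length and then scaled to a sum of 1000000. On that scale the levels in replicates 1 and 2 were 522 and 697 for Mir221, 68.2 and 170 for Mir222, and 15.6 and 10.4 for Mir31.

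Genes that share a seed stood at unlike levels. Mir425, whose strand printed above has the seed of Mir489, lies on chromosome 9 and had 301 and 1373 counts, or 489 ± 200 CPM (SD, n = 2). Mir1928, which has the seed of Mir221 and Mir222, had 0 counts in both libraries. Counts with the seed of Mir489 therefore came from Mir425, and those with the seed of Mir221 came from Mir221 and Mir222, as far as these strands make up the counts of their hairpins.

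Between the libraries, scaled by their totals, Mir222 and Mir221 differed by more than counting error, Mir221 by a small ratio. The difference of Mir31 was within counting error. Given both counts of a gene, a two-sided exact binomial test asked whether they split as the library totals do, and p-values were adjusted by Benjamini-Hochberg over the 305 genes whose mean count was 10 or more. Called genes had an adjusted p under 0.05 together with a ratio of 2 or more either way. The test compares these 2 libraries only, not animals or conditions. Over all tested genes, 33.8% were called (103 of 305), and 79.6% of the calls were higher in replicate 2. Of the 4 genes, 3 passed the filter on counts and 1, Mir222, was called. This share is near the background, so it sets these genes apart from no others.

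The level of Mir222 in replicate 2 was 2.42 times that in replicate 1 (exact interval 1.84 to 3.22, adjusted p = 5.82e-12 by the exact test). The gene stood 94th by absolute log2 ratio among the 305. The call depended on the scaling: the log2 ratio of 1.27 became 0.99 with TMM factors and 0.86 with DESeq2 size factors, and both lie under the 2-fold threshold.

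Mir221 was 1.29-fold higher in replicate 2 (1.18 to 1.42, adjusted p = 1.48e-07 by the exact test) and was not called for lack of a 2-fold ratio. Its log2 ratio of 0.37 differed by -0.07 from the median of all tested genes, 0.43. The difference depended on the scaling. With TMM factors the log2 ratio was 0.086 (adjusted p = 0.284 by the exact test). With DESeq2 size factors it lay on the other side, at -0.049 (adjusted p = 0.579 by the same test). Under both, the difference of Mir221 was within counting error.

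Mir31 was 1.54-fold higher in replicate 1 (0.823 to 2.82, adjusted p = 0.207 by the exact test) and was not called. With DESeq2 size factors it was called higher in replicate 1, at a log2 ratio of -1.04 and an adjusted p of 0.0297 by the same exact test. Relative to the median of all tested genes, the log2 ratio of Mir222 was higher by 0.84 and that of Mir31 was -1.06.

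**Figure D2:**
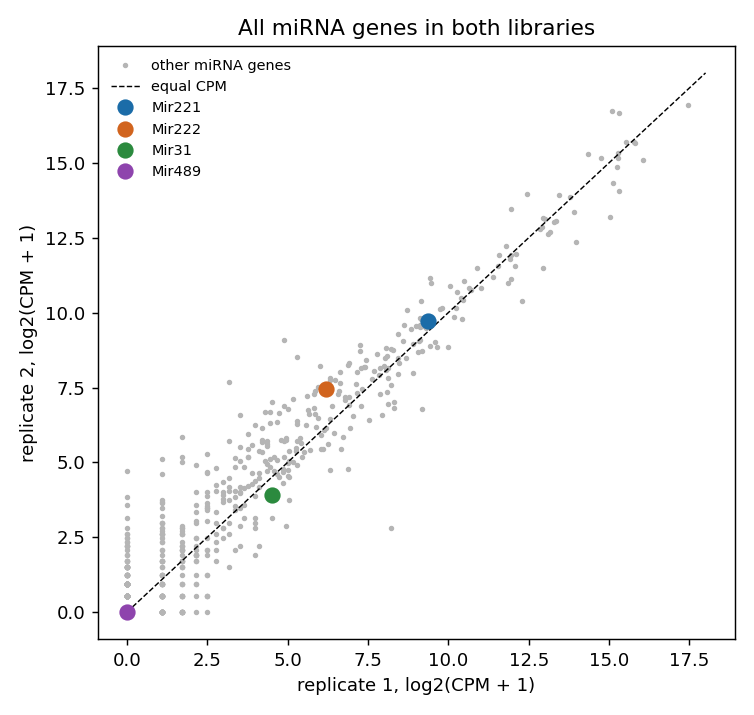
Each of the 2202 miRNA genes by log2(CPM + 1) in replicate 1 (horizontal) and replicate 2 (vertical), with the 4 genes in colour and a dashed line of equal CPM. Mir221 lies near the line, Mir222 above it and Mir31 below it, all inside the cloud of the other genes, and Mir489 lies at the origin with the genes that have no counts.

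Ratios between the 4 genes within a library do not depend on the library total. All 6 pairs were considered, with two-sided Fisher's exact tests of the counts in both libraries and Benjamini-Hochberg adjustment over the 6 pairs, in which the 3 pairs with Mir489 entered at a p of 1. Mir221 exceeded Mir222 by 9.21 to 1 in replicate 1 (exact interval 7.08 to 12.2) and by 4.92 to 1 in replicate 2 (4.40 to 5.51). Mir222 thus made up 9.79% (7.59 to 12.4) and 16.9% (15.4 to 18.5) of the counts of the pair. The intervals did not overlap, and the adjusted p was 3.77e-05 by Fisher's exact test. Mir222 exceeded Mir31 by 3.26 to 1 in replicate 1 (1.93 to 5.78) and by 12.2 to 1 in replicate 2 (8.42 to 18.2), with an adjusted p of 0.000271 by Fisher's exact test. Mir221 exceeded Mir31 by 30.1 to 1 (19.1 to 50.3) and by 59.8 to 1 (42.0 to 88.3), which did not pass, at an adjusted p of 0.0551 by Fisher's exact test. Before adjustment the p was 0.0276 by the same test. The 3 pairs with Mir489 could not differ and raised the adjusted value, so this outcome depends on counting them. Over both libraries the log2 ratio of Mir221 to Mir222 was 2.75 ± 0.64 (SD, n = 2).

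A shift of this size between neighbouring genes was common in these libraries. After the Mir221 and Mir222 values were seen, the same ratio was taken for every pair of tested miRNA genes that are next to each other on one strand and at most 10 kb apart. There were 90 such pairs, many of them in large clusters and so not independent of each other. By Fisher's exact test with adjustment over the pairs, 47.8% of them (43 of 90) differed between the libraries. The absolute difference in log2 ratio was 0.90 for Mir221 and Mir222, 0.89 for the median pair, and larger for 42 pairs. Pairs with few counts are included and some of the larger differences did not pass the test, so the median also holds counting error.

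**Figure D3:**
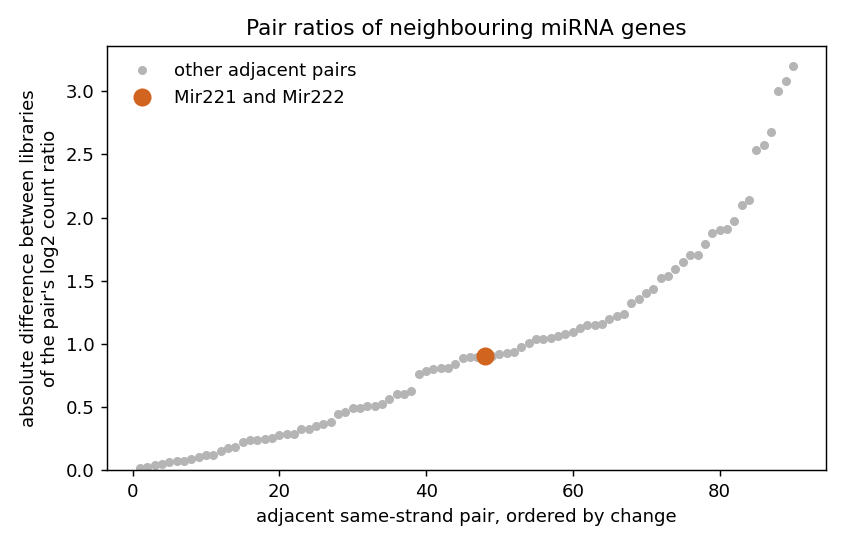
Absolute difference between the libraries in the log2 count ratio of 90 adjacent same-strand miRNA gene pairs, ordered from smallest to largest. Mir221 and Mir222 (orange) lie in the middle at 0.90, close to the median of 0.89.

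The genes nearest to each member in level were found by distance in log2(CPM + 1) of both libraries, which says nothing of shared function or control. Over 2 libraries this is a likeness of level and ratio only. Nearest to Mir221 were Mir324 at 774 ± 142 CPM (SD, n = 2; distance 0.048), Mir676 (distance 0.072) and Mir30c-2 (distance 0.12). Nearest to Mir222 were Mir330 at 122 ± 87.4 CPM (SD, n = 2; distance 0.26), Mir337 (distance 0.34) and Mir181d (distance 0.36). Nearest to Mir31 were Mir6240 with 18 and 31 counts (distance 0.075), Mir701 (distance 0.48) and Mir8111 (distance 0.50). Mir489 was tied with 1595 other genes at 0.

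Mir31 and Mir489 were the lowest genes of the quiescence list, which also holds Mir195a, Mir497 and Mir708, miRNAs tied to satellite cell quiescence in mouse studies. Mir195a stood at 1396 ± 31.1 CPM, from 1418 CPM in replicate 1 and 1374 CPM in replicate 2, and differed little between the libraries. Mir497, its neighbour in the same cluster, stood at 759 ± 480 CPM, from 419 CPM in replicate 1 and 1099 CPM in replicate 2. Mir708, which is known as a Notch target that holds mouse satellite cells in place, stood at 137 ± 27.5 CPM (all SD, n = 2). Of the 5 genes, 4 passed the filter, 1 was called higher in replicate 2 (Mir497, 2.62-fold, interval 2.34 to 2.93) and 3 had no call, against 33.8% called over all tested genes. For the 4, the median log2 ratio was -0.23, against 0.43 over all tested genes. With DESeq2 size factors the 1 called gene of the list was Mir31, higher in replicate 1, and no longer Mir497. The ratio of Mir497 to Mir195a also differed between the libraries, by 1.43 on the log2 scale (adjusted p = 1.81e-55 by Fisher's exact test over the 90 adjacent pairs).

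Mir221 and Mir222 belong to the list of miRNAs reported to repress myoblast differentiation, in which Mir221 had rank 3 of 6 by mean CPM and Mir222 rank 5. Mir23a led it at 40390 ± 493 CPM, followed by Mir155, which is known to target the myogenic factor Mef2a, at 1776 ± 487 CPM. Mir125b-1, at 260 ± 33.7 CPM (all SD, n = 2), and Mir125b-2 stood on either side of Mir222. Reads shared by both Mir125b genes enter no count, so their levels are lower bounds and the ranks hold for counted levels only. Of the 6 genes, 1 was called between the libraries (Mir222, higher in replicate 2) and 5 were not, against 33.8% called over all tested genes. With TMM factors and DESeq2 size factors 0 were called. By the exact test with library totals all 6 had an adjusted p under 0.05, most of them at ratios well under 2. The median log2 ratio was 0.32, against 0.43 over all tested genes.

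Of the 6 genes of miRNAs known to target the satellite cell factors Pax3 or Pax7, Mir206, Mir27b, Mir486 and Mir27a had the highest counted levels. Mir206, a skeletal muscle miRNA that represses Pax7 as mouse satellite cells differentiate, stood at 71810 ± 44437 CPM. Mir27b, which targets Pax3, stood at 7201 ± 213 CPM, Mir486 at 3476 ± 597 CPM and Mir27a at 990 ± 181 CPM (all SD, n = 2). The other genes, Mir1a-2 at 216 ± 76.5 CPM and Mir1a-1 at 23.7 ± 2.39 CPM, had the lowest counted levels of this list. As counted, Mir1a-1 lay close to the 18.1 ± 5.46 CPM of Mir31 (all SD, n = 2). Reads shared by both Mir1a genes enter no count, so their levels are lower bounds. They do not rank the miRNA itself against Mir31 or the rest of the list. Of 6 genes, 1 was called higher in replicate 2, Mir206 at 2.56-fold (2.53 to 2.59), and 5 were not called, against 33.8% called over all tested genes. TMM factors added a call of Mir1a-2, higher in replicate 1. With DESeq2 size factors Mir206 lost its call and Mir1a-2, higher in replicate 1, was the 1 called gene. The median log2 ratio with library totals was 0.15, against 0.43 over all tested genes.

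The list of miRNAs reported to promote differentiation held 18 genes, all with counts in both libraries. Mir378a led it at 152675 ± 40587 CPM, then Mir29a at 14492 ± 423 CPM, Mir322 at 2993 ± 45.0 CPM and Mir29c at 2859 ± 1150 CPM (all SD, n = 2). Of 16 genes that passed the filter, 3 were called higher in replicate 2, 2 higher in replicate 1 and 11 had no call. These 5 calls among 16 genes are near the 33.8% called over all tested genes. The median log2 ratio of the 16 was 0.29, against 0.43 over all tested genes. With TMM factors or DESeq2 size factors 3 were called, all higher in replicate 1. Reads shared by gene copies, such as those of Mir1a, Mir133a, Mir24, Mir26a, Mir29b, Mir125b and Mir181a, are multimapping and enter no count, so the levels of these genes are lower bounds.

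**Figure D4:**
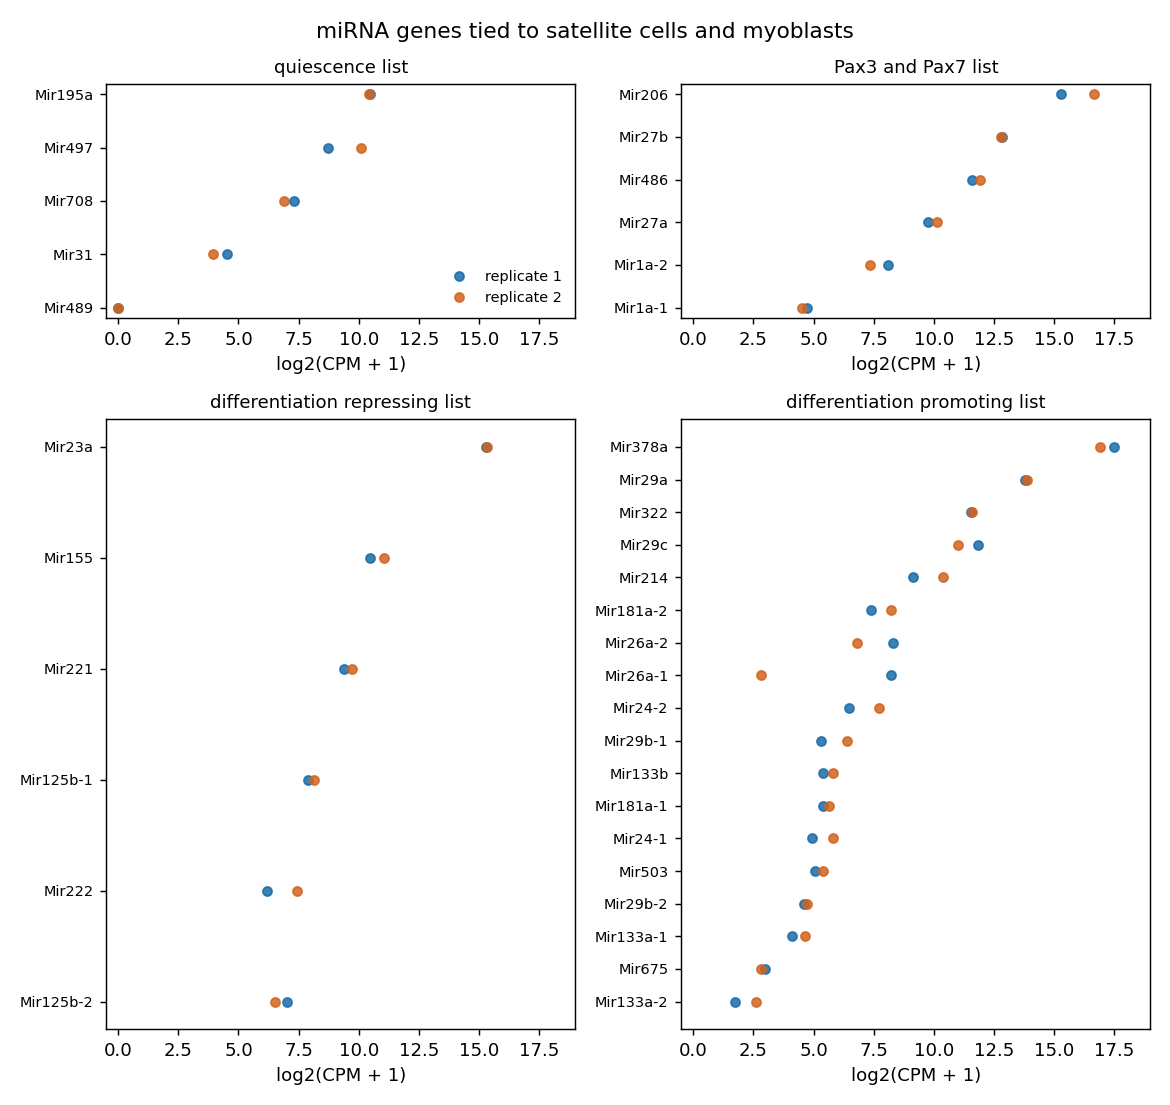
Level of each gene of the 4 lists as log2(CPM + 1) in replicate 1 (blue) and replicate 2 (orange), each list ordered by mean CPM. Mir31 and Mir489 are the lowest genes of the quiescence list, and Mir221 and Mir222 have ranks 3 and 5 among the 6 genes of the differentiation repressing list. Levels of genes with copies, such as Mir125b, are lower bounds, as multimapping reads enter no count.

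Markers of other cells in the muscle did not move together between the libraries. Mir126a of endothelium had 47279 CPM in the first library and 52968 CPM in the other, a ratio of 1.12 beside 1.29 for Mir221 and 2.42 for Mir222. Its partner Mir126b was at 0 in both. The smooth muscle pair Mir143 and Mir145a summed to 75404 and 37985 CPM, so it was 1.99-fold higher in replicate 1, opposite to Mir222. The summed skeletal muscle list was 2.54-fold higher in replicate 2, but Mir206 held most of it, while Mir1a-2 and Mir1a-1 had ratios of 0.600 and 0.867. The summed fibroblast list, at 633 and 1383 CPM, was 2.18-fold higher in replicate 2, and Mir214, at a ratio of 2.37, held most of it. Mir199b had a ratio of 0.822, and the median log2 ratio of the fibroblast list was -0.28. Mir199a-2 was called higher in replicate 1 at a ratio of 0.398 (0.170 to 0.931), but on only 13 counts in each library. Reads shared by both Mir199a genes enter no count. Beside Mir31, which is also known from epithelium, the 7 epithelial genes summed to 342 and 270 CPM, of which Mir203 held 318 and 130 CPM. Of the 7, 5 passed the filter, 4 were called higher in replicate 2 and 1, Mir203, higher in replicate 1. The 4 were Mir200c, Mir205, Mir200b and Mir429, with only 7, 9, 4 and 1 counts in replicate 1. Over all tested genes 103 of 305 (33.8%) were called, 82 of them higher in replicate 2. Of the 4 leukocyte genes, 3 passed the filter and 2, Mir223 and Mir142, were called higher in replicate 1, with Mir142b at 0. The leukocyte sums were 2187 and 1965 CPM, and Mir150, not called at a ratio of 1.05, held most of them. The erythroid pair summed to 230 and 316 CPM, and neither gene was called. The part of these cells in the levels of Mir221, Mir222 and Mir31 was not tested.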

How the data were processed

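The files hold counts of reads per miRNA gene as deposited, with no normalization, in 3 columns without a header (by their values unstranded, sense and antisense), after 4 tallies of reads in no gene. The assembly mm10 and annotation GENCODE M21 are named in the deposited README. No source used here gives the aligner, the counter or adapter trimming. Sense counts were used and tallies stayed out of library sizes. All 2202 identifiers matched the annotation. Tests were two-sided exact binomial tests across all genes whose mean count was 10 or more, and Fisher's exact tests for ratios, both with Benjamini-Hochberg adjustment. Both tests were also run on simulated counts that held counting error only. Those runs cannot show how the tests behave where libraries differ by more than counting error. TMM factors came from edgeR 4.0.16 and size factors from DESeq2 1.42.0 in R 4.3.3, as alternatives to library totals. Other steps used Python 3.11.15, NumPy 2.4.6, SciPy 1.17.1 and pandas 2.3.3.

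Named genes were the 4 members, up to 4 genes of each list by mean CPM, the 3 genes nearest to each member in log2(CPM + 1), miRNA genes within 10 kb and those sharing a seed, with called or unlisted genes added beside small counts. The members and lists were chosen with earlier results of these data known. The alternatives were the unstranded column, other library sizes, other filters, no ratio threshold, division by hairpin length and each library left out. The reads and signal tracks were not analysed here.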

Additional observations from a re-analysis of the deposited data

How the results depend on the processing

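The order of the 4 genes was the same under each alternative for the level. Unstranded counts, whose library totals leave out ambiguous reads, raised the mean to 980 CPM for Mir221 and 23.7 CPM for Mir31, and division by hairpin length gave 610 for Mir221. Per 1000000 of all reads, tallies included, the means were 119 for Mir221, 20.2 for Mir222 and 2.67 for Mir31. Without one library, the level ran from 660 to 852 CPM for Mir221, from 71.6 to 173 for Mir222 and from 14.2 to 22.0 for Mir31. TMM factors lowered each log2 ratio by 0.28 and DESeq2 size factors lowered it by 0.42. Mir222 then lost its call at 0.99 and 0.86, while with DESeq2 size factors Mir31 was called at -1.04 and Mir221 turned to -0.049. Mir221 at 0.37 was called only with no ratio threshold. Calls over all genes numbered 50 where a mean count of 100 or more was asked, which tests fewer genes, and 207 with no ratio threshold, which is a looser rule. The share of calls higher in replicate 2 was 67.3% with TMM factors and 59.8% with DESeq2 size factors, against 79.6%, and with all reads as library size it was 93.9% (138 of 147 calls). With TMM factors the list counts were 2 for Pax3 and Pax7, 3 for differentiation promoting and 0 for differentiation repressing, and with DESeq2 size factors 3 and 0 for the last 2. The single call of the Pax3 and Pax7 list moved from Mir206 to Mir1a-2 with DESeq2 size factors. The cause was not tested beyond the scaling shift. Pair ratios were the same in the unstranded column. Ratios between libraries have no value without either library, and Mir31 does not reach a mean count of 100. No paired analysis was possible because there is 1 group. Counting error limits Mir31, with 19 and 31 counts, and Mir489 at 0.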
